A study of Mus musculus with 15 samples.

Results

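C/EBPβ-expressing NIH 3T3 cells were compared with cells that carried the empty plasmid, using 3 Affymetrix MG_74Av2 arrays of each, chosen by their titles from the 15 arrays of the study. NIH 3T3 is an immortal mouse fibroblast line. The CEBPB group carried human C/EBPβ cDNA in a plasmid whose metallothionein promoter is switched on by zinc. The vector group carried the same plasmid with no insert. Cells of every group had been transfected, selected with G418 as polyclonal lines and given zinc sulphate for 16 h, so the zinc treatment is shared by both sides of the comparison. The labels name triplicate clones, and whether these came from separate transfections is not stated, so p-values cover only the spread among these samples, and transfected pool and cDNA cannot be told apart. The other 9 arrays, 3 each of cells with human C/EBPα (CEBPA), C/EBPδ (CEBPD) or C/EBPε (CEBPE), entered the same fit and were compared with CEBPB directly.

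C/EBPβ is a basic leucine zipper factor that binds DNA as a dimer, with itself, with other C/EBPs or with relatives such as CHOP and ATF4. It acts early in the differentiation of fat cells, and in liver and macrophages it drives acute phase and cytokine genes. Several other programmes bear on these data. Heat shock factor raises chaperone genes when proteins misfold, AP-1 (Fos and Jun dimers) and other immediate early genes respond to mitogens and stress, and the integrated stress response acts through ATF4 and CHOP. SREBP factors control the genes of cholesterol and fatty acid synthesis.

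Signals are scaled fluorescence intensities (units) per probe set. A gene was read by its brightest probe set among the 6963 that passed a filter on signal, which left 5338 genes, and levels of different genes are not compared. Correlations of log2 signals over these probe sets ranged from 0.943 to 0.965 within CEBPB, from 0.941 to 0.960 within vector and from 0.906 to 0.939 between the groups. The control ratio of 3′ to 5′ signal, a sign of RNA quality, was 0.891 to 0.945 in CEBPB and 0.897 to 0.937 in vector for Gapdh. For β-actin it was 1.05 to 1.15 in CEBPB against 1.11 to 1.41 in vector, with the 1.41 on vector replicate 2. The part of this ratio in the results was not tested. The mouse Cebpb probe set read 7578, 14677 and 14079 units in CEBPB and 9526, 17826 and 15243 units in vector. It was not called (log2 difference -0.24, adjusted p = 0.727), and since it was designed for the mouse transcript it does not check the human cDNA.

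Of the 5338 genes, 514 were called at an adjusted p of 0.05 (limma, Benjamini-Hochberg over all probe sets), which is 9.63%. Of these, 285 (5.34%) were higher and 229 (4.29%) lower in CEBPB, and beyond 2-fold 57 (1.07%) were higher and 71 (1.33%) lower. The median log2 difference over all genes was 0.040. On the level of probe sets 648 (9.31%) were called, a count that was 418 without CEBPB replicate 2, 372 without CEBPB replicate 3 and 416 without vector replicate 3. The 357 higher probe sets (5.13%) were 189 without CEBPB replicate 2, 190 without CEBPB replicate 3, 220 without vector replicate 1 and 204 without vector replicate 3, and the 291 lower ones (4.18%) were 180 without CEBPB replicate 1, 182 without CEBPB replicate 3 and 192 without vector replicate 2. In bulk samples, fewer cells of a type and less RNA per cell cannot be told apart. Genes were ranked by log2 difference among those called whose 3 CEBPB arrays all lay on 1 side of the 3 vector arrays, so for every ranked gene the groups do not overlap by construction. Where non-overlap is stated below for a ranked gene, it describes the arrays and is not a further result. Over all genes 15.9% had every CEBPB array above and 11.7% every CEBPB array below the vector arrays.

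Chaperone genes were lower in CEBPB. Of 25 tested heat shock chaperones and co-chaperones, 15 fell in CEBPB and 0 rose, with a median log2 difference of -0.72, against 0.040 over all genes and 4.29% of genes lower. All 10 members that did not pass the test also had a negative difference. Hspa1b, which encodes the inducible chaperone Hsp70, read 27271, 27457 and 28930.0 units on the CEBPB arrays, against 74069.9, 86386 and 79416 units on the vector arrays (log2 difference -1.52 ± 0.14, adjusted p = 6.54e-06). Its near-identical neighbour Hspa1a, whose probes may share signal with it, read 5056, 5835 and 5608 units on the CEBPB arrays, against 25584, 29685 and 27158 units on the vector arrays (log2 difference -2.32 ± 0.32, adjusted p = 2.08e-04). Each CEBPB array lay below each vector array for both genes.

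The partners of Hsp70 and Hsp90 moved the same way. Dnajb1, the Hsp40 that hands clients to Hsp70, read 5968, 7379 and 5999 units on the CEBPB arrays, against 24150.3, 29039 and 24210.1 units on the vector arrays (log2 difference -2.0 ± 0.20, adjusted p = 9.00e-06). The nucleotide exchange factor Hsph1 (Hsp110) read 28647, 34443 and 35668 units on the CEBPB arrays, against 75097, 80989 and 85190.3 units on the vector arrays (log2 difference -1.29 ± 0.13, adjusted p = 6.57e-06). Chordc1, a co-chaperone of Hsp90, read 8137, 8762 and 9130.3 units on the CEBPB arrays, against 22380.5, 22112 and 22758 units on the vector arrays (log2 difference -1.37 ± 0.12, adjusted p = 3.84e-06), and its other tested probe set gave -1.59. The groups did not overlap for these 3 genes, which the ranking required of ranked ones. Log2 differences ± SE were (-1.99 ± 0.19) for Zfand2a, a proteasome-associated zinc finger protein induced by arsenite, (-1.41 ± 0.15) for the small heat shock protein αB-crystallin Cryab, (-0.92 ± 0.15) for the Hsp70-Hsp90 adaptor Stip1 and (-0.89 ± 0.15) for Bag3. They were (-0.81 ± 0.17) for Hsp90aa1, (-0.75 ± 0.16) for the mitochondrial Hsp10 gene Hspe1, (-0.72 ± 0.12) for Hspb8 and (-0.68 ± 0.14) for Hspa4l. Dnajb2, a J-domain co-chaperone outside that list, read 3069, 3885 and 3571 units on the CEBPB arrays, against 10929, 13922 and 10755 units on the vector arrays (log2 difference -1.75 ± 0.17, adjusted p = 7.89e-06). Hspd1, the mitochondrial Hsp60 gene next to Hspe1, was not called (-0.37 ± 0.14, adjusted p = 0.104). Of the 15 calls, 13 held in all 19 alternative settings, and 14 when each CEBPB or vector array was left out in turn; the exception was St13, an Hsp70 cofactor (-0.64 ± 0.15), which was not called without CEBPB replicate 1 (adjusted p = 0.0588), or the 5 arrays numbered 1 (0.0643).

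Promoters of the chaperone genes are shown because heat shock factor binds inverted repeats of GAA. The search was for GAANNTTC or TTCNNGAA, which read the same on both strands, in the 250 bases before each start site (RefSeq, GRCm38.p6). They were present in 5 of 11 fallen chaperone genes with a promoter entry (45.5%), namely Hspa1a, Hspa1b, Hspe1, Hsph1 and Zfand2a, and in 14.5% of all 27025 genes with an entry. The 150 bases before the start sites of Hspa1b, chr17:34959239-34959388 (minus strand), and Hspe1, chr1:55087998-55088147 (plus strand), follow with the matches in capitals, which overlap one another in Hspe1. A match is a run of letters and not a measured site.

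Hspa1b: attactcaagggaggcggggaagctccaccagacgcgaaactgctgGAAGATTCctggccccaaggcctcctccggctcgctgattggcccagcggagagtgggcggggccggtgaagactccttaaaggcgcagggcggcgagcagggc
Hspe1: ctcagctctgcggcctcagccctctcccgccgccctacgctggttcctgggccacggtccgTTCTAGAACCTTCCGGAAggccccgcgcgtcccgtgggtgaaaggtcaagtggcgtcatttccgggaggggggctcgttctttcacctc

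Immediate early genes fell as well. Of 34 tested AP-1 subunits and immediate early genes, 12 fell (35.3%, against 4.29% of all genes) and 0 rose (1 without vector replicate 2). Their median was -0.36 on the log2 scale. Fos, the AP-1 subunit, read 1706, 1838 and 2308 units on the CEBPB arrays, against 8119, 13321 and 7913 units on the vector arrays (log2 difference -2.30 ± 0.21, adjusted p = 5.87e-06). Dusp1, a phosphatase that switches off MAP kinases, read 8835, 9049.6 and 9208 units on the CEBPB arrays, against 19468, 21325 and 21095 units on the vector arrays (log2 difference -1.19 ± 0.11, adjusted p = 6.57e-06). The vector arrays were all above the CEBPB arrays for both genes, and for Fos vector replicate 2 was the highest. The Fra-1 gene Fosl1 (-0.80 ± 0.11), the antiproliferative gene Btg2 (-1.03 ± 0.13), Ier3 (-1.06 ± 0.16) and the G protein regulator Rgs2 (-1.35 ± 0.17) fell too. Other members did not pass the test: Jun read 2962, 2839.7 and 2350.4 units in CEBPB and 3744, 3751 and 3618 units in vector, and Egr1 7696, 9654 and 7884 units in CEBPB and 9562, 12152 and 9568 units in vector. The log2 differences were -0.45 for Jun, whose groups did not overlap, and -0.31 for Egr1, whose groups did. Of 36 growth factors and receptor tyrosine kinases 4 were lower and 4 higher, with a median of -0.0061. Each share was 11.1%, against 4.29% of all genes lower and 5.34% higher. The higher count was 2 without CEBPB replicate 3, vector replicate 2 or vector replicate 3, and 1 without CEBPB replicate 2. Hbegf, a ligand of the EGF receptor, read 3592, 4206 and 3216 units on the CEBPB arrays, against 8345, 9692 and 7571 units on the vector arrays (log2 difference -1.22 ± 0.15, adjusted p = 9.76e-05). The neurotrophic factor Gdnf (-0.96 ± 0.18) and the Kit ligand gene Kitl (-0.65 ± 0.13) were lower, and the receptor gene Met (2.77 ± 0.47) and the growth factor gene Fgf7 (0.67 ± 0.15) higher, but Fgf7 was not called without CEBPB replicate 2 (adjusted p = 0.0575), or the 5 arrays numbered 1 (0.0589). Rgs16, a second regulator of G protein signalling, read 3863, 2572 and 3026 units on the CEBPB arrays, against 7481, 8447 and 6335 units on the vector arrays (log2 difference -1.25 ± 0.15, adjusted p = 7.12e-05).

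The integrated stress response was lower in its effectors. Of 32 tested members 11 fell (34.4%, against 4.29% of all genes) and 0 rose (median -0.41). The count of falls was 7 without CEBPB replicate 3 and 6 without vector replicate 2. Ppp1r15a (GADD34), the subunit that directs a phosphatase to eIF2α, read 3622, 4923 and 4136 units on the CEBPB arrays, against 15852, 19479 and 16946 units on the vector arrays (log2 difference -2.05 ± 0.15, adjusted p = 1.35e-06). Ddit3 (CHOP), which dimerises with C/EBPs, read 4162, 4982 and 4474 units on the CEBPB arrays, against 9045, 11744 and 11808 units on the vector arrays (log2 difference -1.25 ± 0.17, adjusted p = 2.27e-04). Both fell with no overlap of the arrays. The serine synthesis enzyme Psph (-0.69 ± 0.11) and the amino acid transporter subunit Slc3a2 (-0.87 ± 0.17) fell, whereas Atf4 itself read 31169.7, 33838 and 31627 units in CEBPB and 35851, 32782 and 31219 units in vector. Atf4 was not called (log2 difference -0.046, adjusted p = 0.858), nor was its target Asns, asparagine synthetase (-0.26 ± 0.12, adjusted p = 0.196). Trib3, a pseudokinase downstream of ATF4, read 1566, 2029 and 1176 units on the CEBPB arrays, against 2929, 6477 and 4202 units on the vector arrays (log2 difference -1.47 ± 0.35, adjusted p = 0.0138); it lost its call without CEBPB replicate 3 (adjusted p = 0.0749), or vector replicate 2 (0.063).

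All 3 tested Gadd45 genes, which respond to growth arrest and DNA damage, fell. Gadd45g read 2433, 4189 and 2609.9 units on the CEBPB arrays, against 14024, 21866 and 12809 units on the vector arrays (log2 difference -2.40 ± 0.27, adjusted p = 3.49e-05). Gadd45a read 6482, 8138 and 7295 units on the CEBPB arrays, against 14723, 19729 and 18051 units on the vector arrays (log2 difference -1.26 ± 0.16, adjusted p = 1.20e-04), and Gadd45b 6579, 8376 and 6931 units on the CEBPB arrays, against 17033, 16485 and 14288 units on the vector arrays (log2 difference -1.13 ± 0.23, adjusted p = 0.00492). No CEBPB array reached the lowest vector array for any of them, as held for 11.7% of all genes and by construction for ranked ones. The p53 ligase gene Mdm2 was also lower (-0.91 ± 0.15). Of 14 growth arrest and p53 targets 5 fell and 2 rose, against 4.29% and 5.34% of all genes. The p53 target Cdkn1a (p21) was not called on its brightest probe set (-0.48 ± 0.16, adjusted p = 0.0676), but its other tested probe set was lower (-0.85 ± 0.18, adjusted p = 0.00612). The risers were the membrane protein gene Gas1 (1.48 ± 0.19) and the cyclin gene Ccng1 (0.73 ± 0.15).

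Promoters of 4 of these stress genes that hold a match are shown for motifs of C/EBP, ATF and related factors, searched on both strands. TTGCNNAA, a C/EBP motif, occurred in 10.8% of all genes, TGATGCAA, a composite of a C/EBP and an ATF motif, in 0.918%, and the cyclic AMP response element TGACGTCA in 1.77%. TTGCNNAA was in 4 of 23 of the 30 largest falls with an entry and in 2 of 20 of the 30 largest rises. Gadd45a is not among these falls. The composite was in 1 of 23 of the falls, Gadd45g, and 1 of 20 of the rises, Echs1. TGACGTCA was in 2 of 23 and 0 of 20. Of 10 fallen integrated stress response genes with an entry, 1 held the composite (Aars) and 1 TGACGTCA (Ppp1r15a). The capitals mark TGACGTCA in Ppp1r15a, chr7:45526269-45526418 (minus strand), the composite read on the other strand in Gadd45g, chr13:51846525-51846674 (plus strand), and in the alanyl-tRNA synthetase gene Aars, chr8:111033692-111033841 (plus strand), and TTGCNNAA in Gadd45a, chr6:67037408-67037557 (minus strand). Aars fell (-0.68 ± 0.14); it lost its call without the 5 arrays numbered 1 (adjusted p = 0.0833).

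Ppp1r15a: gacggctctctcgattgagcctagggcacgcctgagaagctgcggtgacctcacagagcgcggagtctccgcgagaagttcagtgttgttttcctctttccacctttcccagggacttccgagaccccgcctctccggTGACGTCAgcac
Gadd45g: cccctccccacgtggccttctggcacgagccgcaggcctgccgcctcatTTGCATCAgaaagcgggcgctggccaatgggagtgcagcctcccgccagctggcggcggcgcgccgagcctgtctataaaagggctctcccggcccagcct
Aars: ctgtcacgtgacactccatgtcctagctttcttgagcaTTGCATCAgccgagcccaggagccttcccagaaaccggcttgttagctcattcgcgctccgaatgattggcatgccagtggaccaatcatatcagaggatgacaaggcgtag
Gadd45a: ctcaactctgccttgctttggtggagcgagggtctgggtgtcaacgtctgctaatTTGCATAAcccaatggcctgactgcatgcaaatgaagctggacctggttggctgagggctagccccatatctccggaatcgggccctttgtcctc

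Genes of metal and heme handling were mixed. Hmox1, the inducible heme oxygenase, read 33653, 19597 and 31329 units on the CEBPB arrays, against 99003, 102191 and 97965 units on the vector arrays (log2 difference -1.86 ± 0.18, adjusted p = 6.57e-06). The metallothionein gene Mt2 read 81396, 96133 and 85559 units on the CEBPB arrays, against 136176, 168889.6 and 160951 units on the vector arrays (log2 difference -0.82 ± 0.16, adjusted p = 0.00295), and Mt1 98149.6, 131704 and 98876 units in CEBPB and 135541, 165937 and 172976 units in vector (adjusted p = 0.09). The zinc exporter gene Slc30a1 fell (-1.02 ± 0.18), and the transferrin receptor gene Tfrc rose (0.78 ± 0.15). Of 32 tested members of the list of metallothionein, heme oxygenase and glutathione genes, 5 fell (3 without CEBPB replicate 1) and 3 rose (1 without CEBPB replicate 2, vector replicate 1 or vector replicate 3). The shares were 15.6% and 9.4%, against 4.29% and 5.34% of all genes. Hmox1, Mt2 and Slc30a1 were lower on every CEBPB array than on any vector array.

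**Figure D1:**
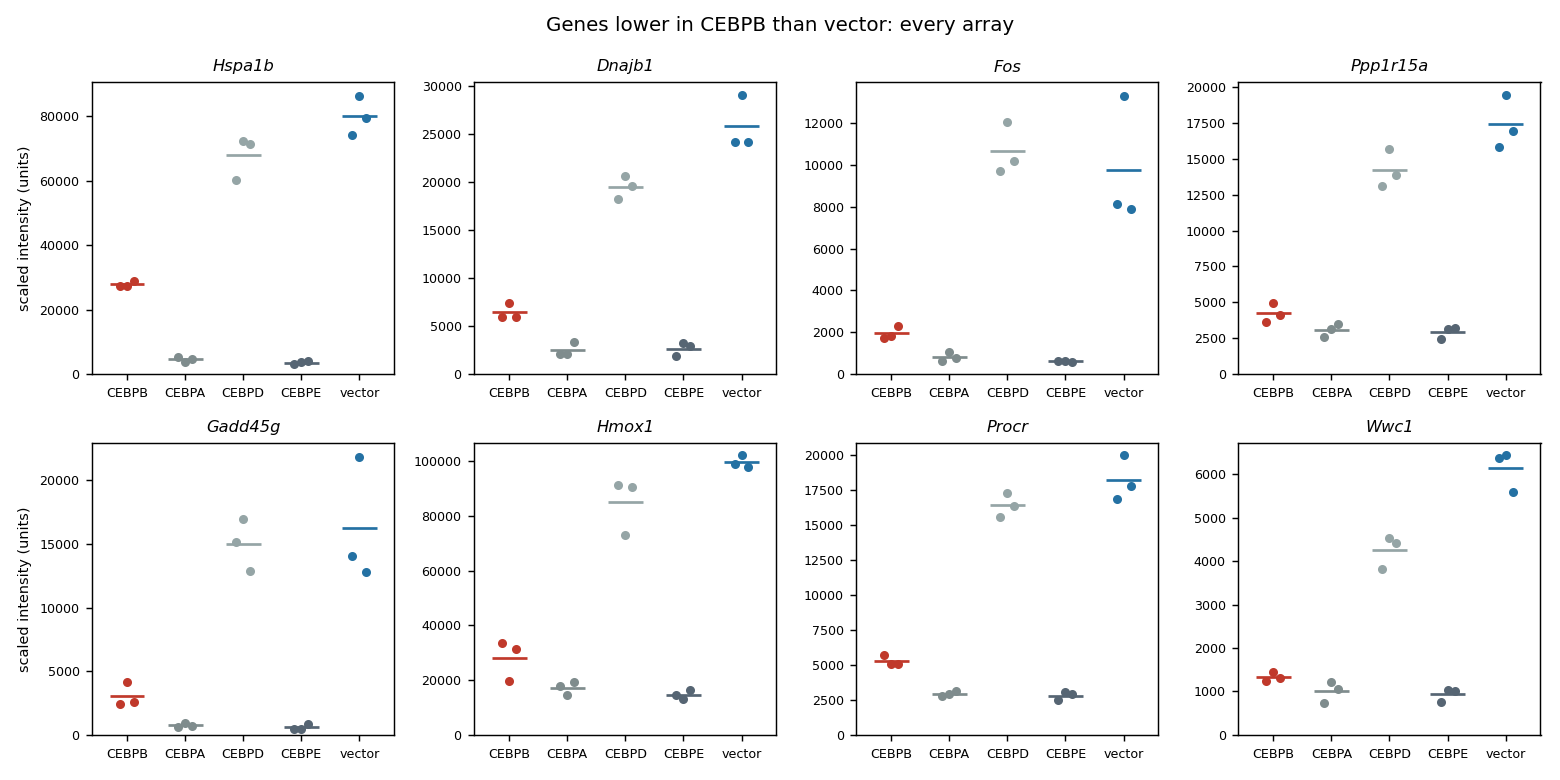
Scaled intensity (units, linear axis from 0) of 8 genes on every array of the 5 groups; points are arrays and bars are means of 3. In each panel the 3 CEBPB points lie below the 3 vector points, for example 27271 to 28930.0 units against 74069.9 to 86386 units for Hspa1b. The ranking required this of every ranked fall.

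Some large falls were in genes of the plasminogen and coagulation systems, which formed no list of their own. Procr, the protein C receptor, read 5712, 5084 and 5100.3 units on the CEBPB arrays, against 16871, 19999.7 and 17774 units on the vector arrays (log2 difference -1.78 ± 0.12, adjusted p = 4.76e-07). The urokinase receptor gene Plaur read 3891, 3777 and 4766 units on the CEBPB arrays, against 10448, 14121 and 11694 units on the vector arrays (log2 difference -1.54 ± 0.15, adjusted p = 6.57e-06), and tissue plasminogen activator, Plat, 3740.0, 4650.1 and 3538 units on the CEBPB arrays, against 10121, 11213 and 10898 units on the vector arrays (log2 difference -1.44 ± 0.21, adjusted p = 3.34e-04). The arrays of the groups did not overlap for any of the 3. Vwf was the largest fall, with 1 CEBPB array at the floor (-2.78 ± 0.44). The coagulation gene F3, tissue factor, moved the other way and rose (0.77 ± 0.15). In the list of matrix proteases and inhibitors, which holds Plaur and Plat, 3 of 21 tested genes fell and 1, the metalloprotease gene Adam9 (0.68 ± 0.13), rose, with a median of -0.081. The shares were 14.3% and 4.76%, against 4.29% and 5.34% of all genes.

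AP-1 motifs (TGANTCA, both strands) lay in the promoter windows of 5 of 23 of the largest falls, Adssl1, Elmod3, Il11, Plaur and Procr. They also lay in 2 of 20 of the largest rises, Ablim1 and Met, and in 7.82% of all genes. The calls of Adssl1, Il11 and Ablim1 were lost without some single arrays. The Plaur promoter, chr7:24462333-24462482 (plus strand), is shown with the match in capitals.

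Plaur: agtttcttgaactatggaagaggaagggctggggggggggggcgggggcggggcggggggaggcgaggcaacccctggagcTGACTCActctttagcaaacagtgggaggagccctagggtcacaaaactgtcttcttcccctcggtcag

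Inhibitors of differentiation fell together: Id2 read 1976, 1528 and 1417 units on the CEBPB arrays, against 3656, 5329.6 and 3784 units on the vector arrays (log2 difference -1.37 ± 0.19, adjusted p = 2.17e-04), and Id3 1818, 2371 and 1457 units on the CEBPB arrays, against 4422, 5161 and 4609 units on the vector arrays (log2 difference -1.36 ± 0.21, adjusted p = 5.49e-04). These proteins hold basic helix-loop-helix factors away from DNA and are targets of BMP signalling. Of 23 TGF-β, BMP and Id genes 5 fell (21.7%, against 4.29% of all genes) and 0 rose. The falls included the BMP signal transducer Smad1 (-0.76 ± 0.14). Smooth muscle actin, Acta2, a TGF-β target, was lower (-1.08 ± 0.19). Nr1d1 (Rev-erbα), a repressor of the clock, was the 1 fall among 14 clock genes (7.14%, against 4.29% of all genes). It read 3139, 3894 and 3080.4 units on the CEBPB arrays, against 7432, 8890.3 and 6721 units on the vector arrays (log2 difference -1.19 ± 0.15, adjusted p = 9.10e-05).

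Other large falls came from varied pathways. Wwc1 (KIBRA), a Hippo pathway scaffold, read 1243, 1458 and 1312 units on the CEBPB arrays, against 6377, 6431 and 5597 units on the vector arrays (log2 difference -2.20 ± 0.19, adjusted p = 3.84e-06). Hgsnat, a lysosomal enzyme of heparan sulphate breakdown, read 3343, 3437 and 3748 units on the CEBPB arrays, against 10609, 12450.4 and 10458 units on the vector arrays (log2 difference -1.67 ± 0.15, adjusted p = 6.37e-06). Atg2a, which transfers lipid to growing autophagosomes, read 2494, 3243 and 3263 units on the CEBPB arrays, against 6441, 10177 and 6822 units on the vector arrays (log2 difference -1.36 ± 0.18, adjusted p = 1.35e-04). These 3 genes each fell with all CEBPB arrays below all vector arrays. In the lysosome and autophagy list, whose calls include neither Hgsnat nor Atg2a, 7 of 38 tested genes fell (18.4%, against 4.29% of all genes). In it 1 rose (2.63%, against 5.34%). Of these 8 calls only 1, Cd68, held when each CEBPB or vector array was left out in turn. Ndrg1, a stress and hypoxia gene, read 6397, 4645 and 6076 units on the CEBPB arrays, against 16131, 15147 and 13365 units on the vector arrays (log2 difference -1.39 ± 0.19, adjusted p = 2.08e-04), and its second probe set gave -1.40. Elmod3 (-1.87 ± 0.22) and Cyb5r1 (-1.31 ± 0.16) were read by probe sets of the kind that can detect related transcripts, and a second Cyb5r1 probe set gave -0.34 and was not called (adjusted p = 0.0948).

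The rises were led by cholesterol synthesis. Of 20 tested genes of the pathway and its regulators, 8 rose and 0 fell, with a median of 0.50, against 5.34% of all genes higher, and all 8 held their call in each of the 19 alternatives. Hmgcs1, which makes HMG-CoA at the entry of the pathway, read 14252, 14314 and 16239 units on the CEBPB arrays, against 5907, 6309 and 5484 units on the vector arrays (log2 difference 1.34 ± 0.12, adjusted p = 3.84e-06). The isoprenoid enzymes Mvd (2.67 ± 0.41), Idi1 (1.08 ± 0.17) and Fdps (1.31 ± 0.21) rose. Sqle, squalene epoxidase, read 17839, 20899.8 and 18190.3 units on the CEBPB arrays, against 6071, 10405 and 7165 units on the vector arrays (log2 difference 1.30 ± 0.18, adjusted p = 2.08e-04). Lss, which closes the sterol ring, read 6808, 8539 and 6761 units on the CEBPB arrays, against 2298, 3253 and 2166 units on the vector arrays (log2 difference 1.53 ± 0.17, adjusted p = 2.32e-05), and the demethylation enzyme Nsdhl 11708, 12885 and 11282 units on the CEBPB arrays, against 3629, 4827 and 3940.1 units on the vector arrays (log2 difference 1.54 ± 0.14, adjusted p = 4.40e-06). All CEBPB arrays were above all vector arrays for these genes, as for Msmo1 (0.87 ± 0.17). Nsdhl's other probe sets gave 1.42 and 0.52. Other members were not called: Cyp51 read 4263, 5008 and 4206 units in CEBPB and 2923, 4578 and 3048 units in vector (log2 difference 0.38), and the regulator Srebf1 4076, 4002 and 3929.8 units in CEBPB and 4049, 5467 and 3987 units in vector (log2 difference -0.15).

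The promoters of Hmgcs1, chr13:119690201-119690350 (plus strand), and Nsdhl, chrX:72918371-72918520 (plus strand), are shown for a sterol element, TCACNCCAC, and for TTGCNNAA. The sterol element was in 1 of 6 raised cholesterol genes with an entry, Hmgcs1, and in 1.22% of all genes. TTGCNNAA was also in 1 of these 6, Nsdhl.

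Hmgcs1: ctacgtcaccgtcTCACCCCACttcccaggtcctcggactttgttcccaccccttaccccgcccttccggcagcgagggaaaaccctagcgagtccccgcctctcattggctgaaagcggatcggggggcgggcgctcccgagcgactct
Nsdhl: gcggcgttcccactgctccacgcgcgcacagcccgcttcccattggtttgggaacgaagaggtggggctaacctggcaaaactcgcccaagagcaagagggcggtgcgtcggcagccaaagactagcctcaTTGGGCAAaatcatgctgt

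Fatty acid enzymes rose in smaller number. Elovl6, which elongates palmitate, read 4502, 4864 and 4624 units on the CEBPB arrays, against 1408, 1996 and 1075 units on the vector arrays (log2 difference 1.69 ± 0.22, adjusted p = 1.18e-04), and its second probe set gave 1.11. Of 23 fatty acid and glyceride synthesis genes 5 rose (21.7%, against 5.34% of all genes). In this list 1 fell (4.35%, against 4.29%), the choline kinase gene Chka (-1.16 ± 0.17). The 5 rises were 3 without CEBPB replicate 1 and 1 without CEBPB replicate 2, CEBPB replicate 3, vector replicate 1 or vector replicate 3. In fatty acid oxidation 6 of 28 tested genes rose (21.4%, against 5.34% of all genes) and 0 fell. Acadm, a medium-chain dehydrogenase, read 3406, 3312 and 3219 units on the CEBPB arrays, against 1532, 1773 and 1667 units on the vector arrays (log2 difference 1.0 ± 0.16, adjusted p = 6.82e-04). Etfa, which takes up electrons from such enzymes (0.77 ± 0.14), and the hydratase gene Echs1 (2.12 ± 0.42) were higher. For all 3 genes each CEBPB array was above each vector array.

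Elsewhere in metabolism, 7 of 64 tested citric acid cycle and oxidative phosphorylation genes rose (10.9%, against 5.34% of all genes) and 0 fell (median 0.25). But the count of rises was 11 without CEBPB replicate 1, 2 without CEBPB replicate 2, 3 without CEBPB replicate 3, vector replicate 1 or vector replicate 3, and 14 without vector replicate 2. Idh1, a source of NADPH, read 8733, 9269 and 8935 units on the CEBPB arrays, against 4374, 4133 and 4135 units on the vector arrays (log2 difference 1.09 ± 0.12, adjusted p = 3.56e-05). It was the 1 of the 7 calls kept in all alternatives, though it is counted in the list without being an enzyme of the cycle itself. The purine enzyme gene Xdh, xanthine dehydrogenase, read 4476, 7616 and 6413 units on the CEBPB arrays, against 1979.6, 2792 and 2556 units on the vector arrays (log2 difference 1.32 ± 0.21, adjusted p = 5.68e-04). Nnmt, nicotinamide methyltransferase, read 2345, 3065 and 1596 units on the CEBPB arrays, against 445, 594 and 443 units on the vector arrays (log2 difference 2.20 ± 0.37, adjusted p = 0.00112), and Abcb10, a mitochondrial transporter of the erythroid heme pathway, 1566, 1854 and 1618 units on the CEBPB arrays, against 288, 296 and 290.2 units on the vector arrays (log2 difference 2.52 ± 0.39, adjusted p = 5.49e-04). CEBPB was above vector on every array for these 4 genes.

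Several matrix genes were among the rises. Dcn (decorin), a small proteoglycan that binds collagen, read 8496, 10033 and 9659 units on the CEBPB arrays, against 2750.2, 3582 and 2823 units on the vector arrays (log2 difference 1.63 ± 0.17, adjusted p = 1.18e-05). Postn (periostin) read 2969, 2877 and 3162 units on the CEBPB arrays, against 986, 1272 and 944 units on the vector arrays (log2 difference 1.5 ± 0.20, adjusted p = 2.00e-04), Thbs2 (thrombospondin 2) 3604, 4538 and 5565 units on the CEBPB arrays, against 2213, 1677 and 1634 units on the vector arrays (log2 difference 1.30 ± 0.19, adjusted p = 3.31e-04) and Vcan (versican) 3887, 5295 and 5155 units on the CEBPB arrays, against 1437, 2108 and 2636 units on the vector arrays (log2 difference 1.24 ± 0.20, adjusted p = 8.42e-04). For each of these 4 genes the lowest CEBPB array was above the highest vector array. Of 35 proteoglycans and glycoproteins 6 rose (17.1%, against 5.34% of all genes) and 1, Vwf, fell (2 without vector replicate 2). Collagen III, Col3a1 (1.16 ± 0.21), and the cross-linking enzyme Lox (1.05 ± 0.18) rose, and the prolyl hydroxylase P4ha2 fell (-0.71 ± 0.11). Of 25 collagen and processing genes 3 rose (5 without CEBPB replicate 1 or vector replicate 2) and 2 fell (1 without CEBPB replicate 1, CEBPB replicate 2 or vector replicate 3). The shares were 12% and 8%, against 5.34% and 4.29% of all genes.

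Rises in signalling and secretion included Gas1, a membrane protein that binds Hedgehog and was found through growth arrest, which read 10068, 13846 and 11369.6 units on the CEBPB arrays, against 3569, 5089 and 4060.1 units on the vector arrays (log2 difference 1.48 ± 0.19, adjusted p = 9.76e-05). The axon guidance ligand gene Sema3a read 2105, 1775 and 2832 units on the CEBPB arrays, against 901, 899 and 919.8 units on the vector arrays (log2 difference 1.28 ± 0.24, adjusted p = 0.00313). Lman1, a lectin that carries glycoproteins out of the endoplasmic reticulum, read 5431, 5352 and 5263 units on the CEBPB arrays, against 2057, 3402 and 1718 units on the vector arrays (log2 difference 1.22 ± 0.20, adjusted p = 6.82e-04). Arrays of the groups did not overlap, and the Lman1 gap was set by vector replicate 2, the highest of its group. Syncrip, an RNA-binding protein, read 3705, 3955 and 4054 units on the CEBPB arrays, against 1401, 1713 and 1617 units on the vector arrays (log2 difference 1.31 ± 0.15, adjusted p = 2.93e-05). Met, the receptor of hepatocyte growth factor, was the largest rise, with 1 vector array at the floor (2.77 ± 0.47). Marcks (1.16 ± 0.16) rose and its relative Marcksl1 (-0.83 ± 0.13) fell. The oxidoreductase Pdia6, which forms disulfide bonds in secreted proteins, rose (1.14 ± 0.16). In the cell cycle list, 5 of 67 rose (7.46%, against 5.34% of all genes; 3 without CEBPB replicate 1 or 2, 2 without CEBPB replicate 3, vector replicate 1 or vector replicate 3) and 1 fell (1.49%, against 4.29%). Rrm2, a ribonucleotide reductase subunit, rose (0.80 ± 0.13) and Ccnf, cyclin F, fell (-0.98 ± 0.19).

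**Figure D2:**
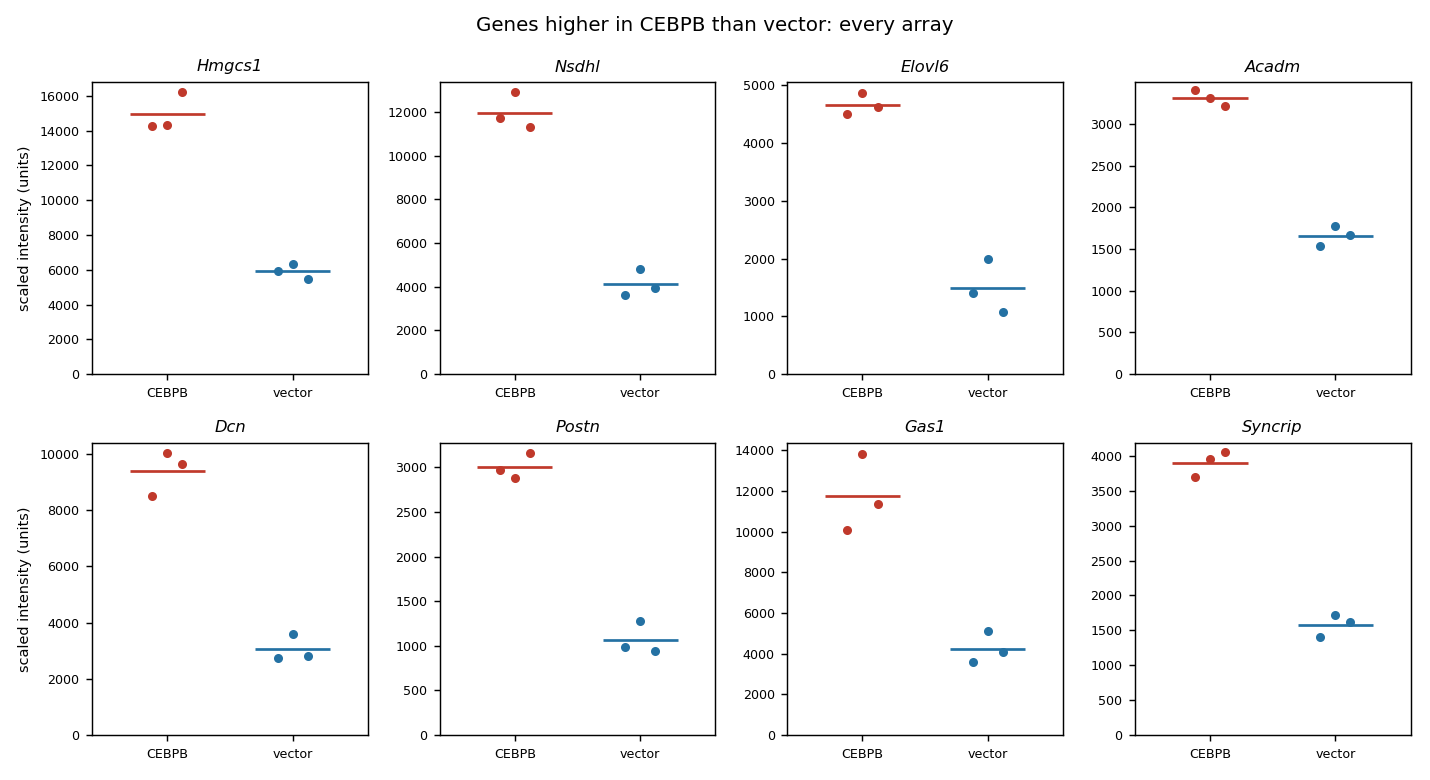
Scaled intensity (units, linear axis from 0) of 8 genes on the 3 CEBPB and 3 vector arrays; points are arrays and bars are means. The CEBPB points lie above the vector points in each panel, for example 14252 to 16239 units against 5484 to 6309 units for Hmgcs1. The ranking required this of every ranked rise.

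Of immune and acute phase genes, Hp, haptoglobin, which binds free haemoglobin, read 3186, 3499 and 4524 units on the CEBPB arrays, against 1769.5, 1164 and 1216 units on the vector arrays (log2 difference 1.44 ± 0.20, adjusted p = 2.18e-04). Cp, ceruloplasmin, rose too (1.11 ± 0.20). These were the 2 rises among 9 tested acute phase and complement genes (22.2%, against 5.34% of all genes), with 0 falls. The acute phase gene Saa3 read 910.3, 857 and 749.7 units in CEBPB and 1132, 1281 and 1425 units in vector and was not called (adjusted p = 0.193). Of 33 chemokines, cytokines and their receptors 5 rose and 5 fell (each 15.2%, against 5.34% and 4.29% of all genes). The falls were 3 without CEBPB replicate 1, vector replicate 2 or vector replicate 3, 2 without vector replicate 1 and 1 without CEBPB replicate 3. The chemokine gene Cxcl5 (1.02 ± 0.13), the macrophage growth factor gene Csf1 (0.89 ± 0.18) and the interferon-induced GTPase gene Gbp2 (1.02 ± 0.16) rose. The falls included Kitl, the cytokine gene Il11 (-2.20 ± 0.53) and the NF-κB subunit gene Rela (-0.57 ± 0.13); Il11 was not called without CEBPB replicate 3 (adjusted p = 0.0638), or vector replicate 1 (0.0507) or 3 (0.0695), or the 5 arrays numbered 1 (0.074), nor Rela without CEBPB replicate 3 (adjusted p = 0.0544), or the 5 arrays numbered 1 (0.0733). Cd68, a lysosomal protein used as a macrophage marker, fell (-1.0 ± 0.15), and Ccl2 was not called (0.30 ± 0.15, adjusted p = 0.265). Vcam1 rose (1.05 ± 0.13) on its brightest probe set, but 2 other probe sets gave -0.099 and 0.57 and were not called.

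Of 17 tested adipocyte differentiation genes 2 rose (11.8%, against 5.34% of all genes) and 1 fell (5.88%, against 4.29%). The 2 rises were 1 without CEBPB replicate 2, CEBPB replicate 3, vector replicate 1 or vector replicate 3, and the 1 fall was 2 without CEBPB replicate 2 or vector replicate 1. Lpl, lipoprotein lipase, read 781, 948 and 925 units on the CEBPB arrays, against 223, 289 and 249 units on the vector arrays (log2 difference 1.80 ± 0.23, adjusted p = 9.76e-05), but its other probe set gave 0.042 and was not called. The call was lost with a floor at the 40th percentile (0.252) and with only CEBPB and vector arrays in the fit (0.0509). Pparg, the master regulator of fat cells, read 39.3, 208 and 181 units in CEBPB and 175, 77.8 and 21.3 units in vector, with 5 of 6 arrays under the floor of 189.652 units, and was not called. The other C/EBP genes were not called: Cebpd read 5664, 7816 and 7524 units in CEBPB and 5498, 8136 and 6437 units in vector (log2 difference 0.07), and Cebpg 2659.9, 2654 and 2899 units in CEBPB and 3579, 4042 and 3850.1 units in vector (log2 difference -0.48, adjusted p = 0.074). Ddit3, a fall, was the 1 call among 11 tested C/EBP and bZIP partner genes (9.09%, against 4.29% of all genes lower).

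Some ranked genes lost their call in an alternative setting or were read at the floor. Mgp, matrix Gla protein, read 1062, 1336 and 1675 units on the CEBPB arrays, against 833, 380.2 and 279.6 units on the vector arrays (log2 difference 1.58 ± 0.46, adjusted p = 0.0402); it lost its call without CEBPB replicate 1 (adjusted p = 0.0585), 2 (0.104) or 3 (0.154), or vector replicate 2 (0.0928) or 3 (0.168). The secretory kinase gene Fam20c (1.54 ± 0.41) was lost without CEBPB replicate 1 (adjusted p = 0.0769) or 2 (0.122), or vector replicate 1 (0.0742) or 2 (0.0704), or the 5 arrays numbered 1 (0.101). Ablim1, an actin-binding protein gene (1.36 ± 0.32), was lost without CEBPB replicate 3 (adjusted p = 0.0504), or vector replicate 3 (0.056). The splicing gene U2surp (2.57 ± 0.64) was lost without CEBPB replicate 2 (adjusted p = 0.0735) or 3 (0.0624), or vector replicate 2 (0.0537) or 3 (0.0728). The kinase gene Mknk1 (1.72 ± 0.44) was lost without CEBPB replicate 2 (adjusted p = 0.0987) or 3 (0.077), or vector replicate 1 (0.0513) or 3 (0.0905). Cd1d1, which presents lipids to T cells (1.39 ± 0.29), and H2-M2 (2.05 ± 0.37) were lost when the floor was raised to the 40th percentile, and Cd1d1 also with only CEBPB and vector arrays in the fit (0.266). Of the ranked falls, Adssl1 (-1.65 ± 0.48) was lost without CEBPB replicate 1 (adjusted p = 0.0661), 2 (0.135) or 3 (0.0797), or vector replicate 1 (0.121), 2 (0.0899) or 3 (0.101), or the 5 arrays numbered 1 (0.207). The kinase gene Hipk1 (-1.49 ± 0.44), with a CEBPB array at the floor, was lost without CEBPB replicate 2 (adjusted p = 0.0748) or 3 (0.19), or vector replicate 1 (0.0996), 2 (0.116) or 3 (0.0929), or the 5 arrays numbered 1 (0.102). The integrin gene Itga7 (-2.02 ± 0.50) was lost without CEBPB replicate 1 (adjusted p = 0.0529) or 3 (0.052), or vector replicate 1 (0.0507), 2 (0.0509) or 3 (0.0763), or the 5 arrays numbered 1 (0.15). The cytokine gene Il11 (-2.20 ± 0.53) was lost without CEBPB replicate 3 (adjusted p = 0.0638), or vector replicate 1 (0.0507) or 3 (0.0695), or the 5 arrays numbered 1 (0.074). Fam117a (-1.65 ± 0.35) was lost without the 5 arrays numbered 1 (adjusted p = 0.0796). Gsdme, which forms pores in dying cells, rose (1.87 ± 0.42) with a vector array at the floor, while its other probe set gave 0.40 and was not called. Second probe sets of Col3a1 (0.82), Hsp90aa1 (-0.47), P4ha2 (-1.01) and Zfand2a (-1.38) had the same sign as the brightest and were not called. Of the 60 ranked genes 50 kept their call when each CEBPB or vector array was left out in turn.

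The lists are summarised by their called shares. They were written with earlier results of these data known, so the shares describe the lists and are not independent support. The share of lower genes was highest in the chaperone list (60%), and the share of higher genes in the cholesterol list (40%), against 4.29% and 5.34% of all genes. At the other end, 0 of 23 cytosolic ribosomal protein genes were called.

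**Figure D3:**
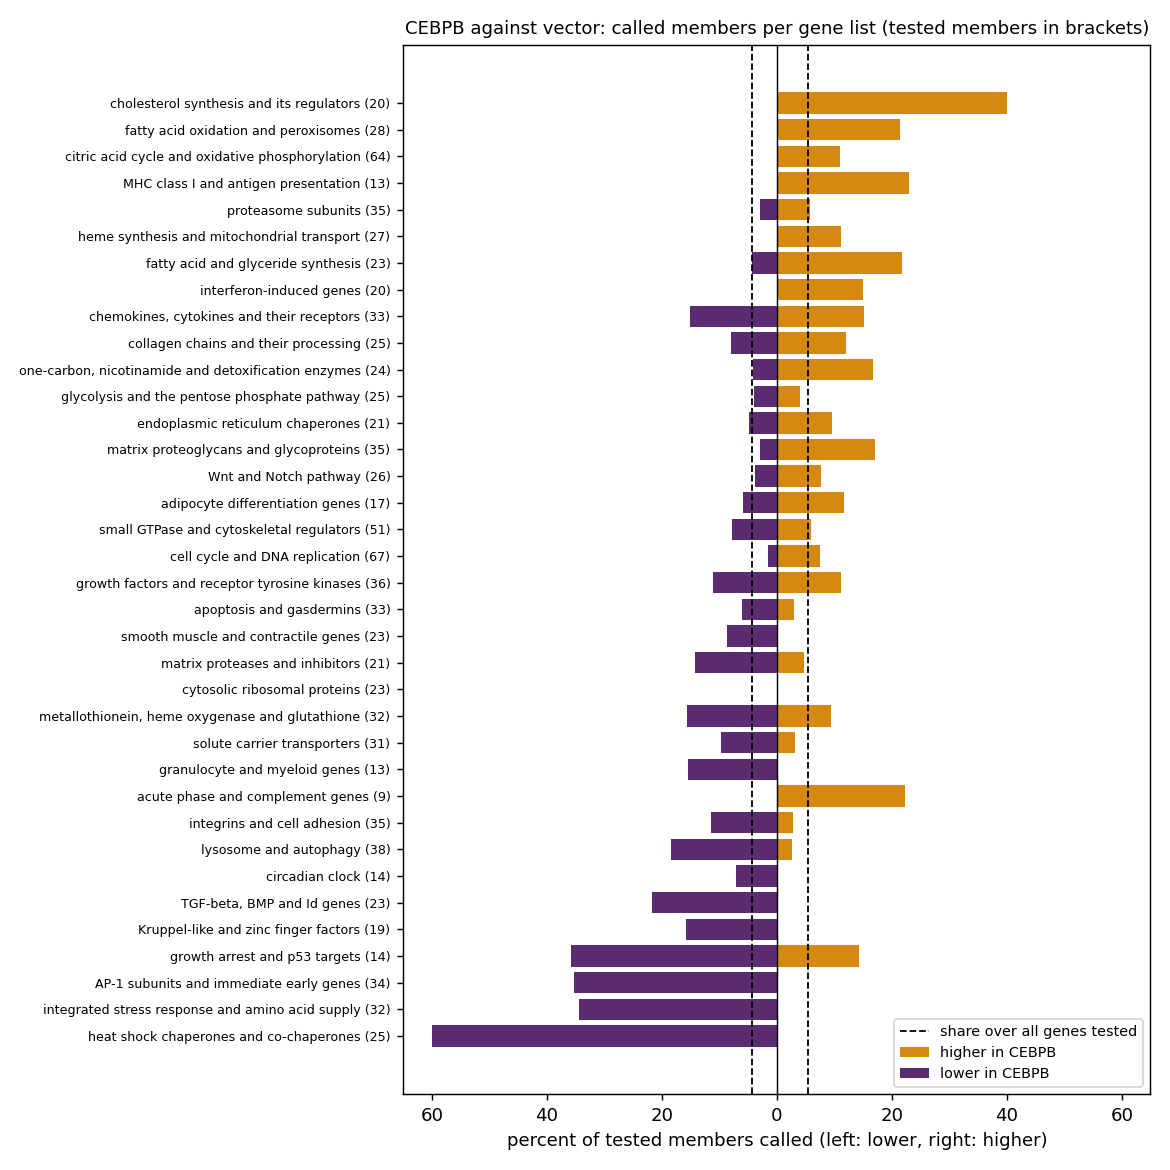
Percent of the tested members of 36 gene lists called higher (right) or lower (left) in CEBPB than in vector, ordered by median log2 difference; dashed lines mark the shares over all genes, 5.34% higher and 4.29% lower. The chaperone list reaches 60% lower and the cholesterol list 40% higher. The lists were written with earlier results of these data known.

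Markers checked the labelled cell type. Of 12 fibroblast markers on the array 10 were tested, 4 rose (40%, against 5.34% of all genes) and 0 fell. The summed signal of the 12 was 154030 to 209465 units in CEBPB against 119829 to 155277 units in vector. None of the 6 adipocyte and 6 hepatocyte markers passed the filter, with sums of 1314 to 2595 units in CEBPB against 1410.0 to 2199 units in vector for adipocytes and 2711 to 3249 units in CEBPB against 1960.0 to 3095 units in vector for hepatocytes. Summed myeloid markers were 9162 to 12443 units in CEBPB against 12729 to 12862 units in vector, with Cd53 at the floor on all 6 arrays. The endothelial sum was 4373 to 4705 units in CEBPB against 6317 to 7993 units in vector, with 1 of 3 tested genes, Vwf, called. Muscle and epithelial sums overlapped between the groups, as did those of the fibroblast, adipocyte and hepatocyte markers. The part of these markers in the results was not tested.

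The direct comparisons placed CEBPB between the other C/EBPs for part of the chaperone and immediate early genes. Of the 25 tested chaperone genes 10 were lower in CEBPB than in CEBPD (2.83% of all genes) and 0 higher, while 6 were higher in CEBPB than in CEBPA (1.42% of all genes) and 6 higher than in CEBPE (1.31%), with 0 lower in either. For Hspa1b the log2 differences were -1.28 ± 0.14 against CEBPD, 2.60 ± 0.14 against CEBPA and 2.96 ± 0.14 against CEBPE, all called. Of 34 immediate early genes 11 were lower in CEBPB than in CEBPD and 1 higher, 8 higher than in CEBPA and 2 lower, and 7 higher than in CEBPE and 2 lower. In the plot of falling genes the CEBPB points of Gadd45g likewise lie above those of CEBPA and CEBPE and below those of CEBPD. Of 32 integrated stress response genes 5 were lower in CEBPB than in CEBPD, but 2 were higher than in CEBPA and 7 higher than in CEBPE. Of 32 metallothionein, heme oxygenase and glutathione genes 5 were lower in CEBPB than in CEBPD (2.83% of all genes) and 2 higher (2.08%). Against CEBPA 1 was higher and 2 lower, and against CEBPE 1 was higher and 1 lower. The 5 lower than in CEBPD were the 5 that fell against vector. Those were chosen as low on the same CEBPB arrays, so this overlap is not a further result.

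The cholesterol genes ran differently. Of 20 tested, 8 were higher in CEBPB than in CEBPD (2.08% of all genes) and 1 lower, 0 were higher and 1 lower (1.35% of all genes) than in CEBPA, and 0 were called against CEBPE. Lpl was lower in CEBPB than in CEBPA by a log2 difference of -3.47 ± 0.23, Hp by -3.37 ± 0.20 and Cd1d1 by -4.13 ± 0.29. Decorin was lower in CEBPB than in CEBPE (-1.66 ± 0.17, adjusted p = 1.47e-05) and higher than in CEBPD (0.84 ± 0.17). Postn was higher in CEBPB than in CEBPD (2.18 ± 0.20) and CEBPE (1.11 ± 0.20).

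In all, 8 probe sets (0.115% of 6963) were higher in CEBPB than in each of the other C/EBP groups, and 13 (0.187%) lower, by adjusted p in all 3 contrasts. Other scalings moved the higher count: 25 higher and 18 lower with quantile normalization, 17 and 15 with no scaling and 15 and 16 with the median log2 ratio. Of the 21 probe sets 6 kept these calls when each CEBPB or vector array was left out in turn, and 3 in all alternatives. Capn6, a calpain without protease activity, read 6877, 7201 and 6531 units in CEBPB, 2772, 2463 and 3145 units in CEBPA, 2385, 2796 and 3070.2 units in CEBPD, 3657, 2938 and 3903 units in CEBPE and 3474, 3378 and 2874 units in vector on a probe set whose CEBPB arrays were all above every other array (smallest of the 3 log2 differences 0.98, largest adjusted p = 0.00109). Its brightest probe set gave 0.41 ± 0.11 against CEBPE and was not called there. Irf1, an interferon regulatory factor, read 6404, 7944 and 6654 units in CEBPB, 4112, 3936 and 4752 units in CEBPA, 4293, 4210.1 and 4193 units in CEBPD, 3789, 4589 and 3944 units in CEBPE and 4200.1, 4259 and 4946 units in vector (smallest of the 3 log2 differences 0.71, largest adjusted p = 0.00345), and was lost without the 5 arrays numbered 1 (adjusted p = 0.0703). D17H6S56E-5 had the same pattern and was lost without the 5 arrays numbered 1 (adjusted p = 0.082).

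Among the lower ones, Ereg, an EGF family ligand, read 563, 796 and 740.2 units in CEBPB, 2486, 2165 and 2033 units in CEBPA, 2428, 2658 and 2414 units in CEBPD, 3614, 4088 and 3700.0 units in CEBPE and 779.7, 1243 and 640.4 units in vector (smallest of the 3 log2 differences -1.68, largest adjusted p = 1.80e-04). Cxcl1, a neutrophil chemokine, read 6411, 5935 and 6730.3 units in CEBPB, 12234, 9799 and 15303 units in CEBPA, 11608, 9860.4 and 11755 units in CEBPD, 17944, 16259 and 18421 units in CEBPE and 5849.7, 6031 and 5905 units in vector (smallest of the 3 log2 differences -0.80, largest adjusted p = 0.00316) on the brighter of its probe sets, whose calls were lost without the 5 arrays numbered 1 (adjusted p = 0.0761). The other had a smallest difference of -1.02 (largest adjusted p = 5.72e-04). Neither was called between CEBPB and vector (adjusted p = 0.46 for Ereg and 0.743 for Cxcl1). Ptx3, a pentraxin of innate immunity, was likewise lower in CEBPB than in the other C/EBPs, with a smallest difference of -0.93. It was lost without CEBPB replicate 2 (adjusted p = 0.0556). Fosl1 was lower in CEBPB than in every other group, vector included, with 6000.0, 6647 and 6385 units in CEBPB, 9351, 8899.6 and 9225 units in CEBPA, 12038, 11327 and 11496 units in CEBPD, 10620.1, 11935 and 10997 units in CEBPE and 10355, 12825 and 10134 units in vector (smallest of the 3 log2 differences -0.53, largest adjusted p = 0.0132); the calls against all 3 C/EBPs were lost without CEBPB replicate 1 (adjusted p = 0.0644) or 3 (0.0519), or the 5 arrays numbered 1 (0.208). The keratinocyte growth factor gene Fgf7 was above vector and below the other C/EBPs, and was lost without CEBPB replicate 1 (adjusted p = 0.0916) or 3 (0.104), or the 5 arrays numbered 1 (0.144). Rgs16, Lmo7, Ifi202b, Ifi204 and Wdr92 were also lower, and F3, Ccn2, Plekha1 and Pde7a higher, and for each of these 9 the calls were lost without at least 1 array: CEBPB replicate 1 for Lmo7, Ifi202b, Wdr92, Ccn2, Plekha1 and Pde7a, CEBPB replicate 2 for Rgs16, Lmo7, Ifi204, F3, Ccn2, Plekha1 and Pde7a, CEBPB replicate 3 for Rgs16, Ifi204, Wdr92, F3, Ccn2, Plekha1 and Pde7a, vector replicate 1 for Rgs16, F3, Ccn2, Plekha1 and Pde7a, and vector replicate 3 for Ifi204, F3, Ccn2 and Pde7a. The largest adjusted p without an array was 0.107 for Lmo7, 0.185 for Rgs16, 0.0583 for Ifi202b, 0.205 for Ifi204, 0.103 for Wdr92, 0.186 for F3, 0.167 for Ccn2, 0.156 for Plekha1 and 0.161 for Pde7a.

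**Figure D4:**
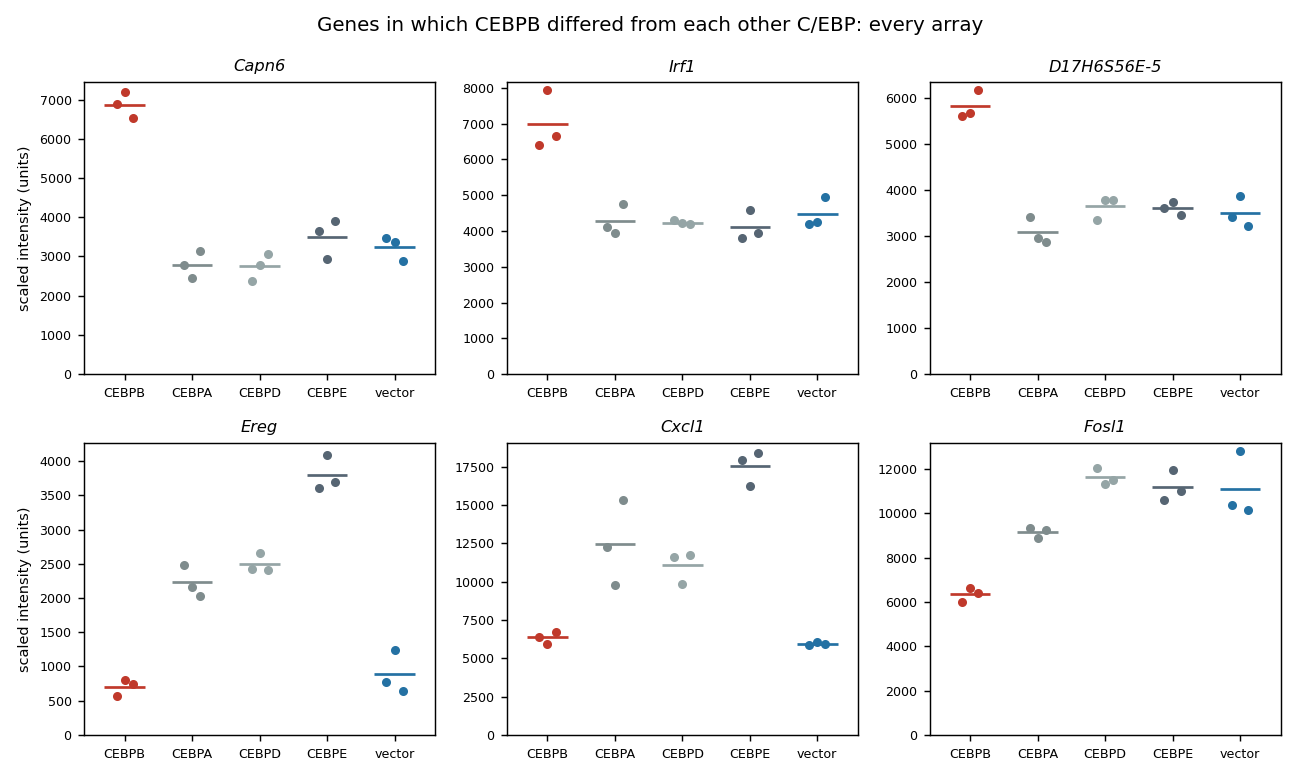
Scaled intensity (units, linear axis from 0) on every array of the 5 groups for 6 probe sets in which CEBPB differed from CEBPA, CEBPD and CEBPE; points are arrays and bars are means. Capn6, Irf1 and D17H6S56E-5 are highest in CEBPB, and Ereg and Cxcl1 are at 563 to 796 and 5935 to 6730.3 units in CEBPB, near vector and below the other C/EBPs. Capn6 is shown on a probe set that is not its brightest.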

How the data were processed

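Per the labels, the authors computed an intensity for each probe set in Microarray Suite 5.0, and those deposited values are on a linear scale. Array medians ran from 994.6 to 1153.95 although 2% trimmed means lay between 2501.12 and 2501.39. No detection calls are used, and precision is limited by the number of arrays. From the 12488 probe sets, 66 controls were removed. Each array was scaled to a common median, a floor was set at the pooled 20th percentile (189.652 units), and values were taken to log2. Probe sets above 1092.06 units (the pooled median) on at least 3 of the 15 arrays were tested. A single linear model over all 15 arrays, 1 coefficient for each group, was fitted by limma 3.58.1 (R 4.3.3; lmFit, then eBayes with trend), with a two-sided moderated test and Benjamini-Hochberg over the 6963 probe sets; log2 differences are given ± SE. The fit was also run on simulated data with 200 changed probe sets, whose outcome is not given here and supports no result.

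Symbols came from the array annotation (10833 probe sets named 1 gene, 396 several, 1193 none). Genes, lists and comparisons were chosen with earlier results of these data known. Named were the 30 largest rises and falls, up to 6 called genes a list with up to 3 not called, C/EBP genes, markers as lists, and up to 12 genes a direction that differed from each other C/EBP. Deviations of same-numbered CEBPB and vector arrays from their group means correlated at 0.32, 0.29 and -0.06 for numbers 1, 2 and 3. The main fit did not pair samples by number, although numbers 1 and 2 deviated together. A fit with a replicate block is given as an alternative.

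Alternatives were 3 other scalings, 2 floors, 2 filters, no trend, no moderation, array weights, a replicate block, only the CEBPB and vector arrays, leaving out each CEBPB or vector array, and leaving out the 5 arrays numbered 1.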

Additional observations from a re-analysis of the deposited data

How the results depend on the processing

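Of 196 named genes called, 100 kept their call in all 19 alternatives, 120 without each CEBPB or vector array in turn, and 0 changed sign. The 648 called probe sets (357 higher, 291 lower) became 1576 (1003 and 573) with array weights, 1099 (641 and 458) with the replicate block, 436 (221 and 215) with only the CEBPB and vector arrays, and 339 (180 and 159) without the arrays numbered 1. Leaving out 1 array gave 372 to 626 called, 189 to 434 higher and 180 to 231 lower. CEBPB and vector arrays numbered 1 and those numbered 2 were each other's closest partners, but for both arrays numbered 3 the closest was numbered 1. The main fit used no pairs, so any difference shared by same-numbered arrays stays in its spread. With the replicate block all 648 main calls were kept among the 1099.

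Of the probe sets in which CEBPB differed from each other C/EBP, the 8 higher ones became 25 with quantile normalization, 17 with no scaling, 15 with the median log2 ratio, 13 with a floor at the 40th percentile, 5 with no trend, 44 with array weights, 26 with the replicate block and 1 without the arrays numbered 1. The 13 lower ones became 41 with array weights, 21 with the replicate block and 4 without the arrays numbered 1. Leaving out 1 array gave 3 to 11 higher and 7 to 14 lower. Without 1 array, the uncalled log2 differences of Cebpb ranged from -0.51 to 0.066 and those of Cebpd from -0.062 to 0.22, changing sign without CEBPB replicate 1 (Cebpb) and without CEBPB replicate 2 (-0.017) or vector replicate 1 (Cebpd). The cause of these shifts was not tested. With no detection calls, values near the floor of 189.652 units have no order, which touches Met, U2surp, Gsdme, Hipk1, Cd1d1 and Vwf.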

Other observations

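Further 3′ to 5′ control ratios were 4.87 to 6.75 in CEBPB against 4.88 to 12.5 in vector for the transferrin receptor. For pyruvate carboxylase they were 1.26 to 1.81 in CEBPB against 1.23 to 1.78 in vector. The 12.5 was vector replicate 2, against 5.93 and 4.88 in vector replicates 1 and 3. That array also gave the highest β-actin ratio of the compared arrays, 1.41. The part of these ratios in the results was not tested. Of the probe sets in which CEBPB differed from each other C/EBP, 3 carry no single gene name in the annotation. The 1 shown here, higher in CEBPB, read 10109, 12097 and 8837 units in CEBPB, 7039.8, 7534 and 6825 units in CEBPA, 6695, 7929.8 and 7625 units in CEBPD, 6659, 6890.3 and 7116 units in CEBPE and 6239, 6897 and 6764 units in vector.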
